A study of Homo sapiens with 24 samples.

Results

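The SLC25 mitochondrial carriers were taken as all protein-coding genes named SLC25A followed by a number that were listed in both deposited tables and reached 1 TPM (transcript abundance relative to a fixed library total) in at least 3 of the 24 libraries. Of 48 such genes, 41 met the rule. The other 7 (SLC25A2, SLC25A18, SLC25A31, SLC25A34, SLC25A41, SLC25A47 and SLC25A52) reached 1 TPM in 0 libraries, with SLC25A18 coming closest at 0.76 TPM and SLC25A52, the near relative of SLC25A51, at 0.12 TPM or less. SLC25A51 is the gene that the study manipulated, so the other 40 carriers were read against its dose and against MPP+.

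Carriers of this family sit mostly in the inner mitochondrial membrane, where each moves a small molecule such as a nucleotide, a carboxylate, an amino acid or a cofactor between cytosol and matrix. They are made in the cytosol, and the receptor TOMM70, the small TIMM chaperones of the space between the membranes and the TIM22 complex insert them. SLC25A51, formerly MCART1, brings NAD+ into the matrix. MPP+ is taken up by dopaminergic neurons and inhibits respiratory complex I, which oxidises matrix NADH.

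RNA came from cells labelled SH-SY5Y, a human neuroblastoma line, in 8 groups of 3 libraries. Cells carried a scrambled hairpin RNA (shScramble), a hairpin against MCART1 (shMCART1), a control for overexpression (oeNC) or an MCART1 overexpression construct (oeMCART1), and each of these 4 populations was sequenced without MPP+ and after 0.5 mM MPP+ for 24 h. The labels do not say how the constructs were delivered, whether a population is 1 clone, or whether the replicates are separate cultures, and p-values thus measure only the spread between these samples. The 12 untreated and the 12 MPP+ libraries stand in 2 separately normalised tables, so tests were made within a table, and MPP+ levels were only set beside untreated ones. TPM keep no sequencing depth. Between 13015 and 14295 genes reached 1 TPM per library, lowest in shMCART1 replicate 3, and replicates of a group correlated at 0.976 to 0.995. Gene numbers also differed by group. Untreated shMCART1 had 13015 to 13794 and shScramble 13922 to 13936, and oeNC had 13329 to 13739 and oeMCART1 13964 to 14053. Under MPP+ oeNC had 13191 to 13406 and oeMCART1 13878 to 14009, while shMCART1 (13864 to 14045) and shScramble (14035 to 14295) overlapped. Their part in the changes was not tested. Defining noradrenergic genes of such a line were at or near 0: PHOX2A reached 0.09 TPM and DBH 0.07 TPM in untreated libraries (not analysed under MPP+), and TH was listed at 0 in all 12 untreated libraries and reached 0.04 TPM under MPP+. Other sympathoadrenal markers were present at low levels: HAND2 lay between 1.39 and 4.44 TPM, ISL1 between 1.68 and 4.8 TPM, CHGA between 0.82 and 4.73 TPM and GATA3 between 3.85 and 7.24 TPM. HEK293T cells are also named in the growth protocol. The 3 absent genes go against the label of a noradrenergic line, and the 4 others do not. Of haematopoietic markers, looked at because the tissue label reads bone marrow, PTPRC, CD3E and HBB were at or near 0.

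Promoter sequences are shown for 4 carriers whose messages the results below turn on: SLC25A13 and SLC25A36, which were higher in MCART1-overexpressing cells under MPP+, and SLC25A6 and SLC25A1, which were lower. Each is the 250 bases upstream of the RefSeq start (GRCh38.p14), 5′ to 3′ on the gene's strand, with the pentamer CCAAT or its reverse complement in capitals.
SLC25A13 (chr7:96322099-96322348, minus strand): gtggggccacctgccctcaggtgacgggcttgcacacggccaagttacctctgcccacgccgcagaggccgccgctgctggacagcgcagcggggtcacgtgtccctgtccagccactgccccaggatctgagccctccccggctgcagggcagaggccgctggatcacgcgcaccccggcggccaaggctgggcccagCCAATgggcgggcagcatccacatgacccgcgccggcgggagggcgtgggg
SLC25A36 (chr3:140941586-140941835, plus strand): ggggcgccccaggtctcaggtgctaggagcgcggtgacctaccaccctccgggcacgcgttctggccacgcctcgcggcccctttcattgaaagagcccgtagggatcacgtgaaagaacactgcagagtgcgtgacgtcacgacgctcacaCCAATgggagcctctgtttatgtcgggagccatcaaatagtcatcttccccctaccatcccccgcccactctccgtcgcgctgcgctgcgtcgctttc
SLC25A6 (chrX:1392114-1392363, minus strand): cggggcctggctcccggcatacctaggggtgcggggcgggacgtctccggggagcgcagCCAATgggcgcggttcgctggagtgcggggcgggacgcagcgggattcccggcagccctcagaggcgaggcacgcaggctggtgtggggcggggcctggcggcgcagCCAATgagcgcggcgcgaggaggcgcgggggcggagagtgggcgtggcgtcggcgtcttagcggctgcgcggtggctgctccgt
SLC25A1 (chr22:19178737-19178986, minus strand): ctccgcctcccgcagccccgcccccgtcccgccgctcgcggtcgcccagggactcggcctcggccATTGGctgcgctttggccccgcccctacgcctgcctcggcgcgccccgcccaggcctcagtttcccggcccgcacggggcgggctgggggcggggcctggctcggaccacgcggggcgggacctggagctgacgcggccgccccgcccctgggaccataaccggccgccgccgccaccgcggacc
All 4 windows hold the CCAAT box, a common element of TATA-less promoters, and that of SLC25A6 holds 2 copies. Promoters were found for 35 of the 41 carriers, and 19 of these (54.3%) held CCAAT on either strand, beside 37.0% of the 27305 genes with a promoter. The letters CCGGAAG, as ETS factors bind, stood in 10 carriers (28.6%) and in 10.2% of all genes. TATAAA stood in 2 carriers (5.71%, beside 13.03%) and TGATGNAA, as ATF4 binds, in 1 (2.86%, beside 3.88%). Both strands were searched. The higher and the lower carriers shown here thus share CCAAT, and a match of letters is not a bound site.

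Levels differed by orders of magnitude within the family. Over the 24 libraries the phosphate carrier SLC25A3 had a median of 1253 TPM, the ADP/ATP carrier SLC25A5 (ANT2) 804 TPM and the ADP/ATP carrier SLC25A6 (ANT3) 346 TPM. These 3 genes of oxidative phosphorylation made up 67.0% to 75.3% of the summed TPM of the 40 carriers other than SLC25A51. The glutathione carrier SLC25A39 (163 TPM) and the citrate carrier SLC25A1 (139 TPM) followed. Of the rest, 20 carriers had medians between 10 and 100 TPM and 15 lay under 10 TPM, down to 2.25 TPM for SLC25A43. The third widely expressed ADP/ATP carrier, SLC25A4 (ANT1, the main form of heart and muscle), had a median of 17.5 TPM.

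The summed level of the 40 carriers without SLC25A51 was 3469 ± 100.1 TPM in oeNC and 3307 ± 53.4 TPM in oeMCART1 (SD, n = 3 in each group throughout). Under MPP+ it was 3457 ± 61.3 TPM in oeNC and 2899 ± 17.6 TPM in oeMCART1. Neither with nor without MPP+ did the oeNC and oeMCART1 libraries overlap. With SLC25A51 counted, the order turned round: the sum over all 41 carriers was 3465 ± 61.9 TPM in oeNC and 3835 ± 59.4 TPM in oeMCART1 under MPP+. In shScramble the sum of the 40 was 3585 ± 92.5 TPM and in shMCART1 3688 ± 71.2 TPM, with values under MPP+ of 3148 ± 66.2 and 3357 ± 81.0 TPM. Without the 3 abundant carriers SLC25A3, SLC25A5 and SLC25A6 the sum under MPP+ was 865 ± 28.4 TPM in oeNC and 891 ± 12.7 TPM in oeMCART1. The lower total in oeMCART1 under MPP+ thus lay in those 3 genes. Untreated, that sum was 1080 ± 22.1 TPM in oeNC and 970 ± 5.44 TPM in oeMCART1, without overlap.

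**Figure D1:**
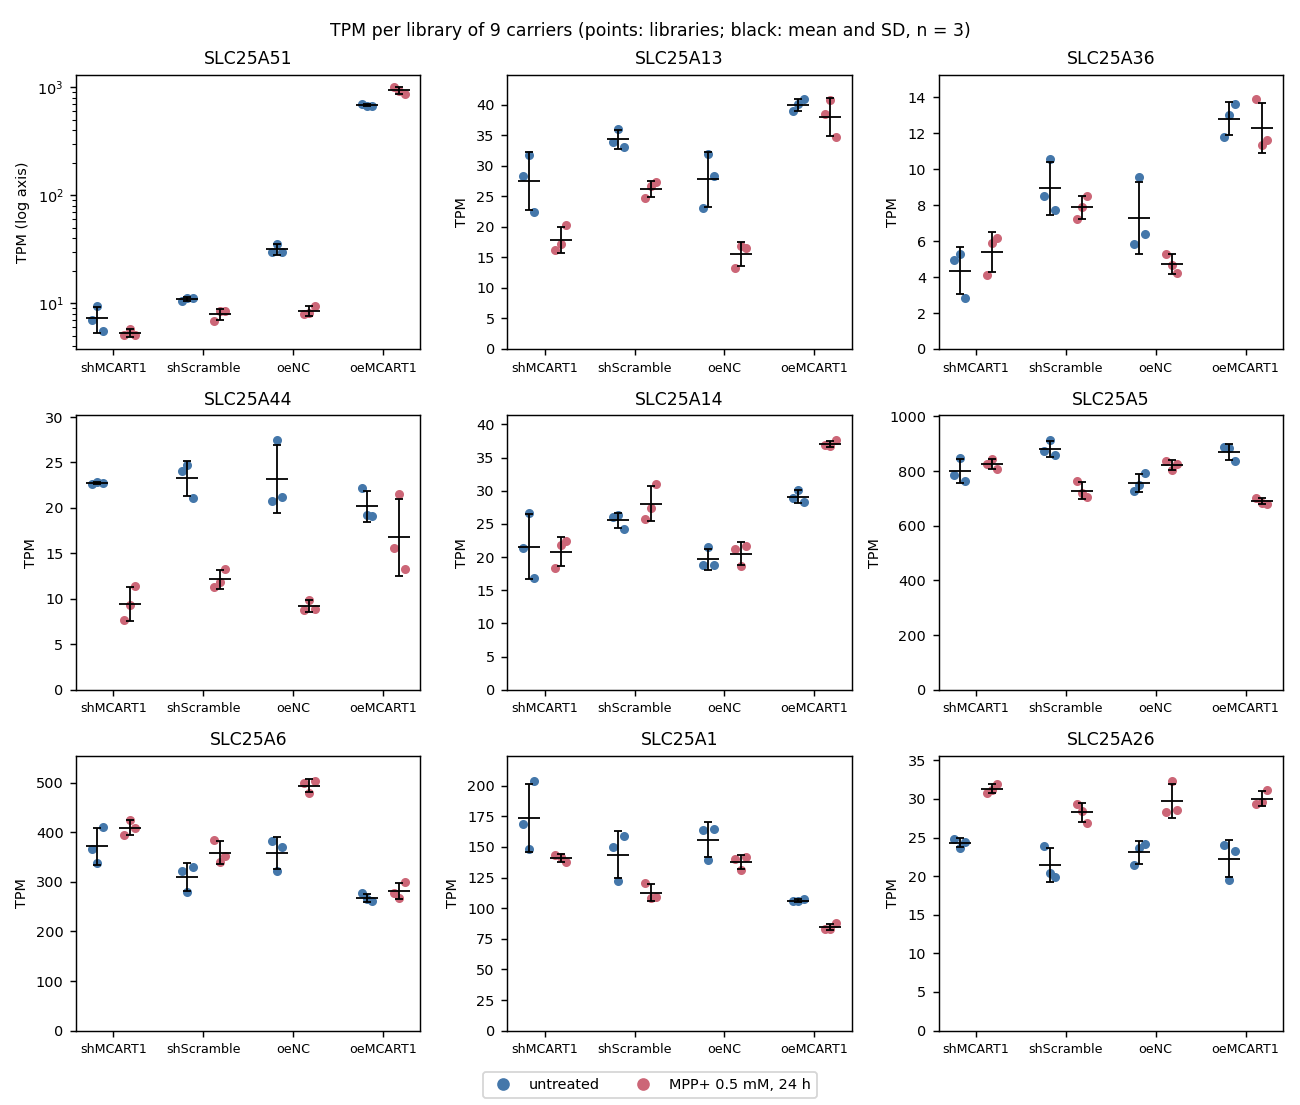
TPM of SLC25A51 (log axis) and 8 other carriers in each library (points) of the 8 groups, with mean ± SD of 3 libraries in black; untreated groups are blue and MPP+ groups red. SLC25A51 stands between 674 and 1008 TPM in all 6 oeMCART1 libraries, SLC25A13, SLC25A36, SLC25A44 and SLC25A14 stand above oeNC in oeMCART1 under MPP+, and SLC25A5, SLC25A6 and SLC25A1 stand below it.

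SLC25A51 itself (ENSG00000122696, chr9:37879400-37904353, minus strand, GRCh38) was measured first, as a check of the labels. Untreated shScramble libraries held 10.5, 11.1 and 11.2 TPM and shMCART1 libraries 6.91, 9.45 and 5.47 TPM. Untreated oeNC libraries held 29.5, 35.7 and 29.7 TPM and oeMCART1 libraries 697, 674 and 678 TPM. No library of a construct overlapped its control: the hairpin left 66.5% of the control level and the construct gave 21.6 times its control. Under MPP+ the values were 6.87, 8.38 and 8.47 TPM in shScramble, 5.12, 5.82 and 5.06 TPM in shMCART1, 7.87, 8.15 and 9.44 TPM in oeNC and 1008, 931 and 869.9 TPM in oeMCART1. The hairpin there left 67.5%, and the construct gave 110.3 times its control. The log2 change by limma was -0.56 ± 0.14 (SE; adjusted p = 0.0195) for untreated knockdown, 4.39 ± 0.14 (SE; adjusted p = 2.31e-08) for untreated overexpression, -0.49 ± 0.09 (SE; adjusted p = 0.00239) for knockdown under MPP+ and 6.63 ± 0.09 (SE; adjusted p = 1.06e-12) for overexpression under MPP+. The exact two-sided permutation p was 0.1 in each of these, which is the lowest value possible with 3 libraries a side. The knockdown call in untreated cells was lost without shScramble replicate 2 (adjusted p = 0.0804), without shMCART1 replicate 1 (0.0514) and without shMCART1 replicate 3 (0.0618). The controls were not alike: untreated oeNC held 2.89 times the SLC25A51 of shScramble (log2 1.44 ± 0.14 SE, adjusted p = 0.002004), whereas under MPP+ the 2 controls overlapped (0.09 on the log2 scale, adjusted p = 0.432). That difference was called with median-of-ratios scaling (0.34, adjusted p = 0.00991), quantile normalization (0.41, adjusted p = 0.00644) and the trend on transcript GC content removed (0.29, adjusted p = 0.032). The ratio of 21.6 for untreated overexpression is thus relative to a control that itself held more SLC25A51 than shScramble, and where those transcripts came from was not tested.

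Overexpression of SLC25A51 under MPP+ went with the widest change among the other carriers. Carriers of aspartate and glutamate (SLC25A13), pyrimidine nucleotides (SLC25A36), branched-chain amino acids (SLC25A44), folate and FAD (SLC25A32) and the uncoupling-protein relative SLC25A14 rose, as did the outer-membrane protein SLC25A46, which acts in mitochondrial dynamics. The abundant ADP/ATP and phosphate carriers SLC25A5, SLC25A6 and SLC25A3 and the citrate carrier SLC25A1 fell. In all, 20 of 40 carriers rose and 9 fell by limma (Benjamini-Hochberg adjusted p under 0.05 over all genes tested), beside 46.7% and 14.2% of all 14884 genes tested and 60.9% in both directions. The median log2 change was 0.24 over the 40 carriers and 0.26 over all genes, so at the median the family moved as all genes did.

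SLC25A13, which passes aspartate out of the matrix as part of the malate-aspartate shuttle, held 13.2, 16.9 and 16.5 TPM in the oeNC libraries and 38.5, 40.8 and 34.8 TPM in the oeMCART1 libraries under MPP+. The oeMCART1 libraries were all higher, with a log2 change of 1.24 ± 0.10 (SE; adjusted p = 2.71e-06). Its paralog SLC25A12, the form prominent in brain and muscle, changed by 0.36 ± 0.10 (SE; adjusted p = 0.00989). SLC25A36 held 5.29, 4.67 and 4.22 TPM in oeNC and 13.9, 11.3 and 11.6 TPM in oeMCART1, again without overlap (1.21 ± 0.13 SE, adjusted p = 1.34e-05). The other pyrimidine nucleotide carrier, SLC25A33, changed by 0.40 ± 0.08 (SE; adjusted p = 7.71e-04). SLC25A44 held 8.75, 9.92 and 8.84 TPM in oeNC and 15.6, 21.5 and 13.2 TPM in oeMCART1 (0.78 ± 0.16 SE, adjusted p = 0.00118). The lowest oeMCART1 library of SLC25A44 thus stood above the highest oeNC library, though the 3 differed among themselves more than for SLC25A13. SLC25A14 held 21.2, 18.6 and 21.7 TPM in oeNC and 36.96, 36.7 and 37.6 TPM in oeMCART1, a rise of 0.83 ± 0.09 (SE; adjusted p = 1.20e-05) with closely spaced replicates.

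Among the carriers that fell under MPP+, SLC25A6 showed the largest log2 change, -0.81 ± 0.05 (SE; adjusted p = 6.66e-07). Its oeNC libraries held 499, 479 and 503 TPM and its oeMCART1 libraries 278, 268 and 299 TPM, which leaves 57.01% of the control level. SLC25A5 held 838, 803 and 826 TPM in oeNC and 701, 685 and 681 TPM in oeMCART1 (-0.25 ± 0.03 SE, adjusted p = 6.27e-05). Both of these ADP/ATP carriers were lower in every oeMCART1 library, whereas the scarcer SLC25A4 rose by 0.33 ± 0.09 (SE; adjusted p = 0.00559). The phosphate carrier SLC25A3, which feeds ATP synthase with its substrate, held 1261, 1273 and 1292 TPM in oeNC and 1037, 1040 and 1035 TPM in oeMCART1 (-0.30 ± 0.03 SE, adjusted p = 9.01e-06). SLC25A1, which exports citrate for lipid synthesis, held 141, 131 and 142 TPM in oeNC and 83.3, 82.9 and 87.8 TPM in oeMCART1 (-0.70 ± 0.05 SE, adjusted p = 1.24e-06). The groups of both genes were clear of each other.

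By role, 4 of 9 adenine nucleotide, phosphate and pyrimidine carriers rose and 4 fell, and 5 of 7 amino acid carriers rose and 1, the basic amino acid carrier SLC25A29, fell (-0.37 on the log2 scale). The ATP-Mg/phosphate carriers, which set the matrix adenine nucleotide pool, split: SLC25A24 rose by 0.89 and SLC25A25 fell by 0.42. Of the 6 cofactor carriers besides SLC25A51, 3 rose, among them SLC25A32 (0.95) and the peroxisomal SLC25A17 (0.24), and the coenzyme A carrier SLC25A42 (-0.46) fell. Of 5 carboxylate and acylcarnitine carriers, SLC25A20 (0.47), which brings acylcarnitines in for fatty acid oxidation, and SLC25A21 (1.12) rose, and SLC25A1 and the oxoglutarate/malate carrier SLC25A11 (-0.20) fell. SLC25A21, a carrier of oxodicarboxylates, was scarce, at 1.43, 2.64 and 1.31 TPM in oeNC and 2.46, 6.6 and 6.94 TPM in oeMCART1, and those libraries overlapped. Of 4 iron and glutathione carriers, SLC25A40 (0.48) and the iron carrier SLC25A37 (0.25) rose. Among the 3 uncoupling-protein relatives SLC25A14 alone passed the test, and of the 6 carriers with other or unassigned roles SLC25A46 (0.93), SLC25A43 and SLC25A45 rose while SLC25A48 fell (-0.58).

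These splits of higher and lower depended on the scale. Median-of-ratios scaling, which brings the median of all genes from 0.26 to 0.02, gave 7 carriers higher and 17 lower, and quantile normalization gave the same split, 7 and 17. Of all 14884 genes the former gave 4214 higher and 4099 lower, and the latter 4147 and 3929. With the trend of values on transcript GC content taken out library by library (GC trend removal), 8 carriers were higher and 11 lower. Of the 13918 genes in that fit 3676 were higher and 3015 lower. Of the 29 carriers called, 14 kept call and direction under all 3: SLC25A13, SLC25A14, SLC25A32, SLC25A36, SLC25A44 and SLC25A46 higher, and SLC25A1, SLC25A3, SLC25A5, SLC25A6, SLC25A11, SLC25A25, SLC25A29 and SLC25A48 lower. The share of all called genes that kept theirs is not given here or below. Counts of kept carriers thus do not set the family apart from other genes. SLC25A17 turned round and was called lower with the GC trend removed (-0.42, adjusted p = 1.29e-04), SLC25A4, SLC25A12 and SLC25A40 went to -0.01, -0.12 and -0.10, and SLC25A37 and SLC25A38 went below 0 under median-of-ratios scaling, none of these 5 passing the test there. Leaving out 1 library ended the calls of SLC25A48 (oeNC replicate 3 or oeMCART1 replicate 1), SLC25A29 (oeNC replicate 1, oeMCART1 replicate 1 or 3), SLC25A42 (oeNC replicate 1 or 3, oeMCART1 replicate 1 or 3), SLC25A20 (oeNC replicate 1), SLC25A21 (oeNC replicate 1 or 3, oeMCART1 replicate 2 or 3), SLC25A43 (replicate 1 or 2 of either group), SLC25A45 (oeNC replicate 1, oeMCART1 replicate 1 or 2), SLC25A38 (oeNC replicate 2 or oeMCART1 replicate 1) and SLC25A37 (any of the 6). Markers of mesenchymal cells moved in this comparison too: the sum of 5 such genes, of which COL1A1 and TWIST1 reached 1 TPM throughout, lay between 14.8 and 17.7 TPM in oeNC and between 7.87 and 9.73 TPM in oeMCART1, chiefly through COL1A1 (10.4 ± 1.07 and 2.47 ± 0.617 TPM), and their part in the result was not tested. In bulk RNA, fewer cells of a kind and less RNA per cell cannot be told apart.

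Without MPP+, overexpression went with 13 of 40 carriers higher and 9 lower, beside 33.5% and 14.6% of all 14694 genes tested and 48.2% in both directions. The carriers that rose most were SLC25A24 (0.97 ± 0.23 SE on the log2 scale), SLC25A46 (0.95 ± 0.22), the uncoupling-protein relative SLC25A30 (0.83 ± 0.20), SLC25A36 (0.76 ± 0.21), SLC25A32 (0.74 ± 0.18) and SLC25A12 (0.62 ± 0.18). Those that fell most were the dicarboxylate carrier SLC25A10 (-0.61 ± 0.12), SLC25A29 (-0.56 ± 0.16), SLC25A1 (-0.55 ± 0.12), SLC25A39 (-0.46 ± 0.11), SLC25A6 (-0.42 ± 0.09) and SLC25A11 (-0.35 ± 0.11). All 3 uncoupling-protein relatives rose, though the call of SLC25A27 was lost without any 1 of the 6 libraries and under median-of-ratios scaling, quantile normalization and GC trend removal, and 3 of 5 carboxylate carriers fell with 0 rising. The median was 0.06 over the carriers and 0.16 over all genes, and the share of carriers called was near that of all genes.

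SLC25A10, which exchanges malate or succinate for phosphate, held 82.1, 71.5 and 84.5 TPM in oeNC and 50.7, 51.96 and 52.2 TPM in oeMCART1 (adjusted p = 0.00473 by limma). SLC25A1 held 164, 139.6 and 164 and 106, 106 and 107 TPM in the same groups (adjusted p = 0.00655). SLC25A14 held 18.8, 21.5 and 18.8 and 28.9, 30.2 and 28.4 TPM (log2 0.54 ± 0.13 SE, adjusted p = 0.00837). In each of these 3 genes the groups did not overlap, and they were the 3 calls of 22 that kept call and direction under median-of-ratios scaling, quantile normalization and removal of the GC trend alike. SLC25A24, with the largest rise, held 5.43, 7.87 and 6.3 TPM in oeNC and 12.6, 14.01 and 14.3 TPM in oeMCART1, and its log2 change of 0.97 became 0.25 (adjusted p = 0.144) with the GC trend removed. SLC25A13, higher at 38.9, 40.1 and 40.9 TPM against 23.1, 31.9 and 28.3 TPM (0.52 ± 0.13 SE, adjusted p = 0.00955), became 0.07 (adjusted p = 0.317). Median-of-ratios scaling and quantile normalization each gave 10 higher and 14 lower, the former bringing the median of all genes to 0.02. Of all 14694 genes the former gave 4228 higher and 3375 lower, and the latter 3711 and 4011. SLC25A17, SLC25A27 and SLC25A40 were higher on the deposited scale and had -0.27, -0.13 and -0.13 with the GC trend removed, SLC25A17 then being called lower (adjusted p = 0.0177). Without oeNC replicate 1, 14 carriers in place of 22 were called, and 3999 of all genes in place of 7080. The calls of SLC25A36, SLC25A12 and SLC25A11 were among those lost. The last 2 were also lost without oeNC replicate 3, SLC25A12 without oeMCART1 replicate 3, and SLC25A11 without oeMCART1 replicate 1 or 2.

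Knockdown under MPP+ went with 4 of 40 carriers higher and 9 lower, beside 10.8% and 22.2% of all genes and 33.1% in both directions. SLC25A32, SLC25A13, SLC25A36, SLC25A46, SLC25A14 and SLC25A24 fell most, and SLC25A25, SLC25A1, SLC25A6 and SLC25A5 rose. Of the 7 amino acid carriers 3 fell (SLC25A13, SLC25A12 and the glycine carrier SLC25A38), and of the 9 nucleotide and phosphate carriers 3 rose and 3 fell. The median log2 change was -0.06 over the carriers and -0.08 over all genes, and here too the share of carriers called was near the background.

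SLC25A13 held 24.8, 26.6 and 27.4 TPM in shScramble and 16.1, 17.2 and 20.3 TPM in shMCART1 under MPP+, without overlap (-0.53 ± 0.10 SE, adjusted p = 0.00287). SLC25A32, which carries folate and FAD, held 11.4, 12.3 and 12.2 and 7.55, 6.89 and 8.13 TPM (-0.60 ± 0.10 SE, adjusted p = 0.00124). SLC25A14 held 25.8, 27.4 and 30.97 and 18.3, 21.8 and 22.4 TPM (-0.41 ± 0.09 SE, adjusted p = 0.00484). Every shMCART1 library was below every shScramble library in these 3 genes. SLC25A1 held 121, 108 and 109 TPM in shScramble and 143, 142 and 138 TPM in shMCART1 (0.32 ± 0.05 SE, adjusted p = 9.31e-04), and SLC25A5 762, 718 and 705 and 824, 843 and 806 TPM (0.18 ± 0.03 SE, adjusted p = 0.00272). In both, every shMCART1 library was the higher. SLC25A36, SLC25A46 and SLC25A24 changed by -0.49, -0.44 and -0.39, and none of the 3 passed the test with the GC trend removed (adjusted p = 0.213, 0.312 and 0.573). Of the 13 calls 6, SLC25A1 and SLC25A25 higher and SLC25A13, SLC25A14, SLC25A32 and SLC25A38 lower, kept call and direction under median-of-ratios scaling (9 higher, 6 lower), quantile normalization (5 and 5) and GC trend removal (7 and 4). Over all genes these splits were 2477 and 2355, 2371 and 2482 (both of 14884), and 1900 and 2069 (of 13918). Without shScramble replicate 3, 7 carriers were called, and without shMCART1 replicate 2, 8. Over all genes 3412 and 3581 were called there, beside 4922 with all libraries. The calls of SLC25A36, SLC25A46, SLC25A24, SLC25A12, SLC25A33 and SLC25A6 were lost without shScramble replicate 3, those of SLC25A25, SLC25A24, SLC25A12, SLC25A33 and SLC25A6 without shMCART1 replicate 2, and those of SLC25A36, SLC25A46, SLC25A24, SLC25A12 and SLC25A33 without shMCART1 replicate 1. The summed mesenchymal markers lay between 14.9 and 17.3 TPM in shScramble and between 20.8 and 20.99 TPM in shMCART1, and their part was not tested.

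Untreated knockdown, where the 3 shMCART1 libraries held unequal amounts of SLC25A51, went with 4 of 40 carriers higher (SLC25A6, SLC25A10, SLC25A22 and SLC25A35) and 9 lower, beside 8.63% and 25.6% of all genes and 34.3% in both directions. The 6 largest falls were those of SLC25A36 (-0.91 ± 0.21 SE on the log2 scale), SLC25A24 (-0.89 ± 0.23), SLC25A46 (-0.80 ± 0.22), SLC25A30 (-0.79 ± 0.20), SLC25A32 (-0.72 ± 0.18) and SLC25A40 (-0.71 ± 0.19), and SLC25A43, SLC25A17 and SLC25A4 fell too. SLC25A36 held 8.5, 10.6 and 7.74 TPM in shScramble and 4.97, 5.26 and 2.84 TPM in shMCART1, where replicate 3 was lowest, and the groups did not overlap. SLC25A24 held 10.5, 11.6 and 10.04 and 6.01, 7.7 and 3.07 TPM, with replicate 3 again lowest. The glutamate carrier SLC25A22 held 28.1, 24.4 and 30.03 TPM in shScramble and 31.7, 31.8 and 37.9 TPM in shMCART1 (0.29 ± 0.10 SE, adjusted p = 0.0425). The median was -0.02 over the carriers and -0.15 over all genes. None of these 13 calls kept call and direction with the GC trend removed. Called there, all higher, were SLC25A3, SLC25A26, SLC25A27 and, turned round from -0.36 to 0.24, SLC25A17, and the largest fall, that of SLC25A36, became -0.29 (adjusted p = 0.0636). Leaving out shScramble replicate 2 left 0 calls, shMCART1 replicate 3 left 2, shMCART1 replicate 1 left 5 and shScramble replicates 1 and 3 left 8 each, whereas 21 were called without shMCART1 replicate 2. The calls over all genes moved alike. They were 2 of 14602 without shScramble replicate 2, 1006 of 14610 without shMCART1 replicate 3 and 2271 of 14608 without shMCART1 replicate 1. Without shScramble replicates 1 and 3 they were 3208 and 3824, and without shMCART1 replicate 2 they were 7246. Median-of-ratios scaling gave 8 carriers higher and 7 lower, and quantile normalization 5 and 7. Of all 14694 genes the former gave 2642 higher and 3173 lower, and the latter 2590 and 2898. GC trend removal gave 509 and 803 of 14154 genes. Mesenchymal markers summed to between 25.8 and 29.6 TPM in shScramble and between 30.6 and 36.2 TPM in shMCART1, and their part was not tested.

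**Figure D2:**
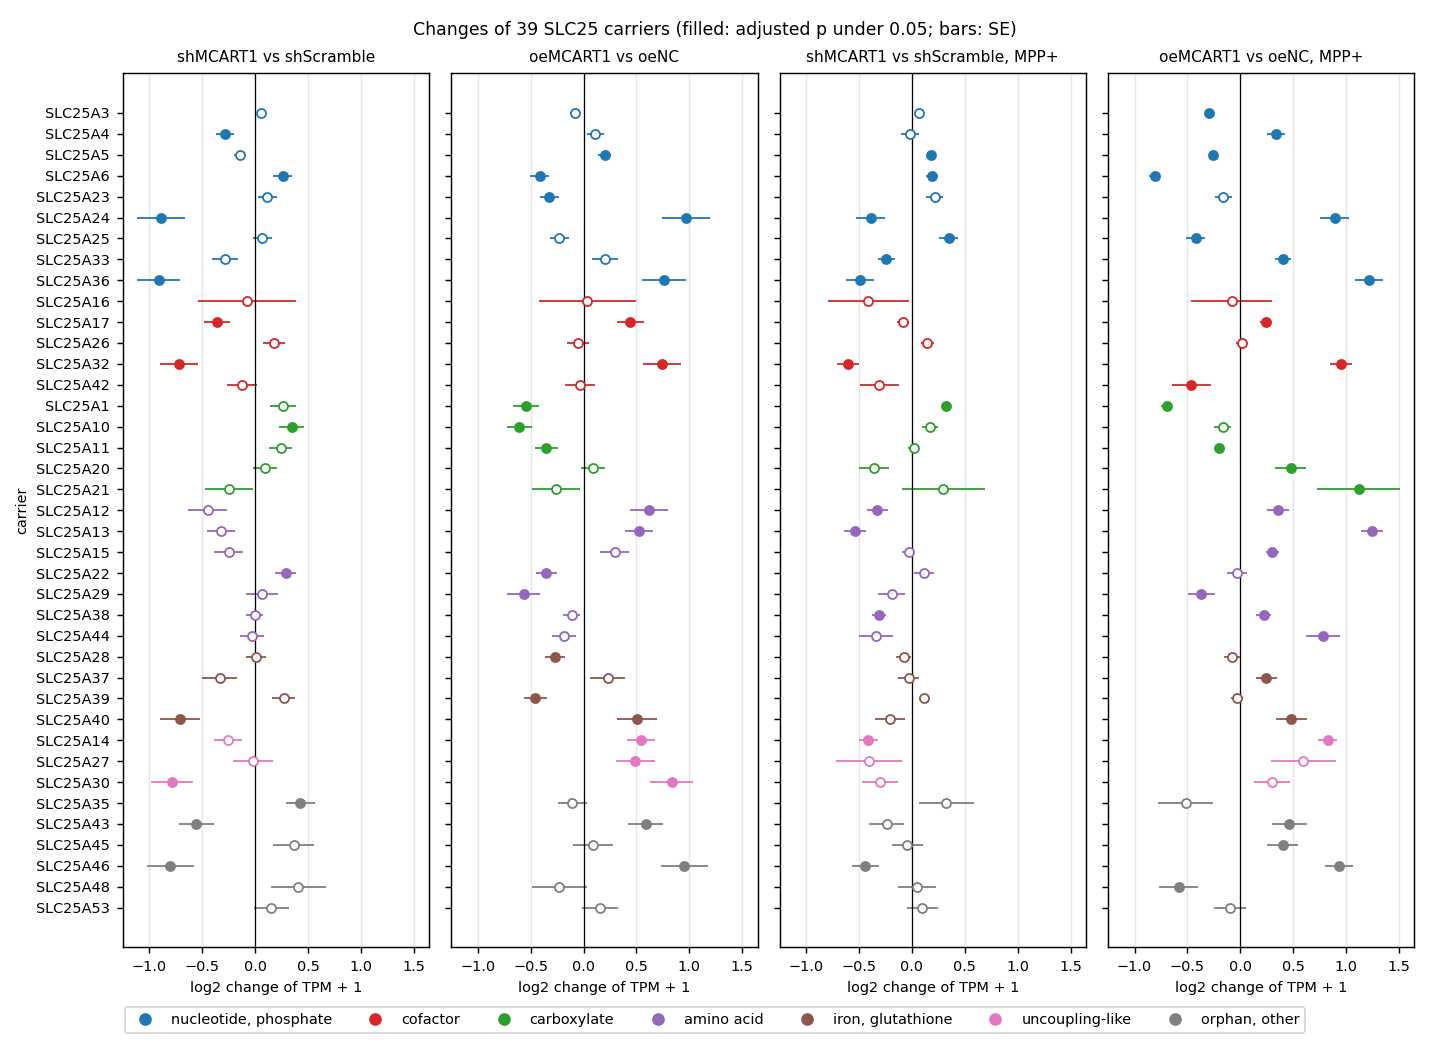
Log2 change (bars, SE) of 39 of the 40 carriers other than SLC25A51 in 4 comparisons of a construct with its control, coloured by role, with filled points where limma's adjusted p was under 0.05. Carriers called in both a knockdown and the matching overexpression panel go opposite ways, and the spread is widest for overexpression under MPP+, from -0.81 for SLC25A6 to 1.24 for SLC25A13.

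Knockdown and overexpression share no library, so their changes could be set against each other. Without MPP+, 11 carriers were called in both, 84.6% of the knockdown calls and 50% of the overexpression calls (81.9% and 58.2% for all genes), and all 11 went in opposite directions. Under MPP+, 13 were called in both, 100% of the knockdown and 44.8% of the overexpression calls (82.8% and 44.9% for all genes), and all 13 were opposite. Of all genes called in both, 99.8% were opposite without MPP+ and 95.8% under it, so opposite change was shared by the rest of the transcriptome. Across the 40 carriers Spearman's rho between knockdown and overexpression was -0.82 untreated and -0.69 under MPP+, and -0.63 and -0.57 with the GC trend removed, given as a description across genes that share libraries and normalisation. Between the 2 tables, 14 of the 15 carriers called in both overexpression comparisons kept their direction, and SLC25A5 did not. All 5 carriers called in both knockdown comparisons (SLC25A6, SLC25A24, SLC25A32, SLC25A36 and SLC25A46) kept theirs. Of all genes called in both, 9.001% changed direction between the overexpression comparisons and 2.48% between the knockdown comparisons.

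The change of a carrier moved with the base composition of its transcript, as it did for all genes. Spearman's rho between GC content and log2 change over the 40 carriers was 0.78 for untreated knockdown, -0.78 for untreated overexpression, 0.54 for knockdown under MPP+ and -0.66 for overexpression under MPP+. Over all genes with a GC value the same figures were 0.78, -0.80, 0.47 and -0.60. The 20 carriers under the family's median of 49.7% GC, among them SLC25A36, SLC25A24, SLC25A40 and SLC25A13, had a median change of 0.50 in untreated overexpression, and the 20 richer in GC, among them SLC25A1, SLC25A10 and SLC25A6, had -0.23. Under MPP+ those medians were 0.43 and -0.12. For knockdown they were -0.30 and 0.11 untreated, and -0.27 and 0.00 under MPP+. SLC25A5 and SLC25A3, with 49.5% and 43.9% GC, belong to the 20 carriers poorer in GC and fell in overexpression under MPP+. SLC25A5 lay just under the median of 49.7%. The part of base composition in these falls was not tested.

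**Figure D3:**
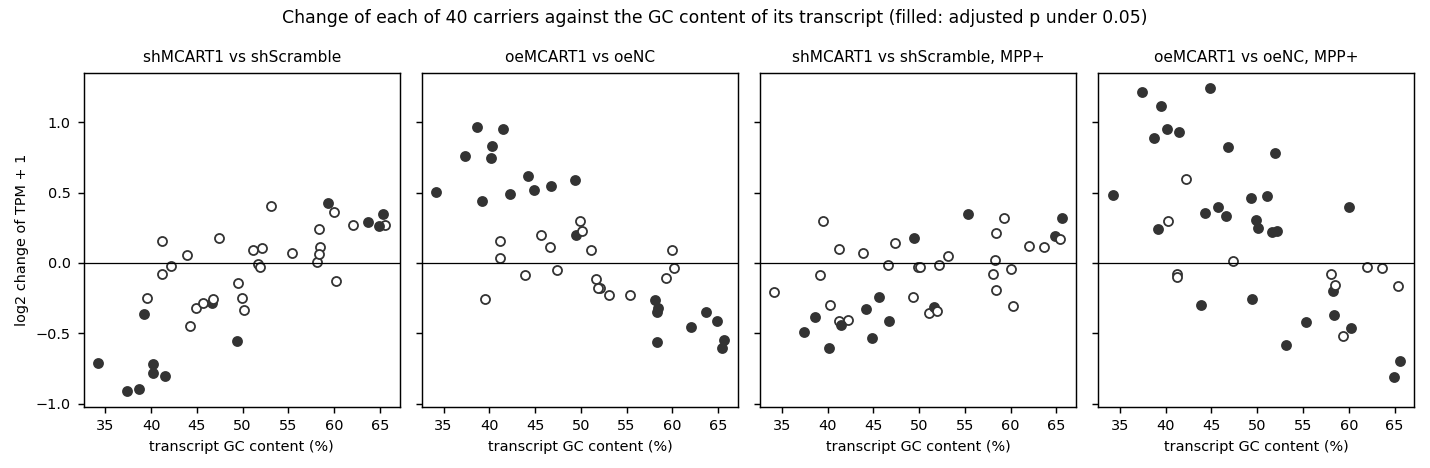
Log2 change of each of the 40 carriers (y) against the GC content of its longest protein-coding transcript in percent (x), in 4 comparisons. Points rise with GC content in both knockdown panels (rho 0.78 and 0.54) and fall with it in both overexpression panels (rho -0.78 and -0.66).

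Whether the overexpression effect differed between MPP+ and untreated cells was tested as a difference of effects over all 24 libraries. By limma 6 carriers had a higher effect under MPP+ and 3 a lower one, beside 12.5% and 5.22% of 15642 genes and 17.8% in both directions. SLC25A44 differed most: its effect was -0.18 untreated and 0.78 under MPP+, a difference of 0.96 ± 0.20 (SE; adjusted p = 0.00237). The untreated libraries held 20.8, 27.4 and 21.2 TPM in oeNC and 22.2, 19.2 and 19.1 TPM in oeMCART1, which overlapped, unlike those under MPP+. For SLC25A13 the effects were 0.52 and 1.24, a difference of 0.72 ± 0.17 (SE; adjusted p = 0.00634). SLC25A5 turned round, from 0.20 to -0.25 (-0.45 ± 0.06 SE, adjusted p = 9.78e-05), and SLC25A6 went from -0.42 to -0.81 (-0.39 ± 0.11 SE, adjusted p = 0.0159). These 4 kept call and direction under median-of-ratios scaling, quantile normalization and GC trend removal. SLC25A10, SLC25A39 and SLC25A38 had differences of 0.44, 0.42 and 0.33, which did not pass the test under median-of-ratios scaling and were lost without 1 of several libraries, among them oeNC replicate 3 and oeMCART1 replicate 1 of the untreated cells and oeNC replicate 2 under MPP+, and SLC25A3 had -0.21, which did not with the GC trend removed. For knockdown, SLC25A5 was the 1 of 40 carriers that differed, upwards (-0.14 untreated and 0.18 under MPP+, a difference of 0.32 ± 0.06 SE, adjusted p = 0.00993), beside 1.72% of all genes higher, 2.15% lower and 3.87% in all. That call did not hold under median-of-ratios scaling or quantile normalization, and the count was 3 without untreated shMCART1 replicate 2. Over all genes 2469 of 15595 were called without that library, beside 605 with it. Because these effects come from separately normalised tables, a scaling common to a table cancels within each effect, but other differences in processing between the tables, whose lists of genes differ, cannot be told apart from MPP+.

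The 2 controls also differed under MPP+. Of the 40 carriers 5 were higher and 15 lower in oeNC than in shScramble, beside 5.13% and 42.8% of all genes and 48% in both directions. SLC25A24 (-0.89 ± 0.14 SE), SLC25A13 (-0.73 ± 0.10), SLC25A32 (-0.67 ± 0.10), SLC25A46 (-0.65 ± 0.13), SLC25A36 (-0.64 ± 0.13) and SLC25A40 (-0.58 ± 0.14) were lowest, and SLC25A6 (0.46 ± 0.05), SLC25A1 (0.29 ± 0.05), SLC25A25 (0.28 ± 0.09), SLC25A5 (0.17 ± 0.03) and SLC25A3 (0.13 ± 0.03) were higher. SLC25A13 held 24.8, 26.6 and 27.4 TPM in shScramble and, as given above, 13.2 to 16.9 TPM in oeNC, and SLC25A6 held 385, 339.8 and 352 TPM and 479 to 503 TPM, without overlap in either. Of the 20 calls 7 (SLC25A1, SLC25A3, SLC25A5, SLC25A6 and SLC25A25 higher, SLC25A13 and SLC25A24 lower) kept call and direction under median-of-ratios scaling (13 higher, 5 lower), quantile normalization (10 and 3) and GC trend removal (9 and 2). Over all genes these splits were 2879 and 2880, 2452 and 2480 (both of 14884), and 1741 and 1497 (of 13918). SLC25A17, lower on the deposited scale (-0.24), was called higher with the GC trend removed (0.28), and the call of SLC25A25 was lost without shScramble replicate 2 or 3 or oeNC replicate 1. The same oeNC libraries serve as the control of overexpression, so the levels are given side by side: mean SLC25A13 was 15.6 TPM in oeNC, 17.9 in shMCART1, 26.2 in shScramble and 38.02 in oeMCART1. SLC25A6 had 494 TPM in oeNC, 409 in shMCART1, 359 in shScramble and 282 in oeMCART1. Other carriers called higher in oeMCART1 than in oeNC had means in oeMCART1 near those of shScramble. SLC25A24 had 4.23 TPM in oeNC, 8.75 in shScramble and 8.68 in oeMCART1. In the same order SLC25A17 had 37.7, 44.7 and 44.7 TPM, SLC25A4 11.1, 14.7 and 14.3 TPM and SLC25A12 5.03, 6.99 and 6.70 TPM. A change of oeMCART1 from shScramble was not tested. Without MPP+, where oeNC held 2.89 times the SLC25A51 of shScramble, limma called 0 of the 40 carriers (10 had an unadjusted p under 0.05), beside 0.204% of all genes higher, 1.09% lower and 1.29% in all. That count was 3 without oeNC replicate 2, where 2281 of all 14623 genes were called.

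An order along SLC25A51 dose was looked for across all 4 populations, shMCART1 below shScramble below oeNC below oeMCART1 in group means. Without MPP+ 0 of 40 carriers had means in rising order and 5 in falling order (SLC25A3, SLC25A23, SLC25A25, SLC25A29 and SLC25A48), beside 3.01% and 12.6% of all genes. Under MPP+, where the SLC25A51 levels of the 2 controls overlapped on the deposited scale, 0 were in rising and 5 in falling order (SLC25A10, SLC25A23, SLC25A35, SLC25A48 and SLC25A53), beside 1.70% and 8.09%. SLC25A23, an ATP-Mg/phosphate carrier, and SLC25A48 were on both lists. Untreated SLC25A23 had means of 68.2 ± 5.22 TPM in shMCART1, 63.1 ± 7.12 in shScramble, 60.1 ± 2.43 in oeNC and 47.9 ± 2.23 in oeMCART1. The shScramble libraries overlapped those of shMCART1 and of oeNC, and the oeMCART1 libraries lay below all of these.

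MPP+ libraries were set beside the untreated ones of the same population, without a test. The median log2 difference over the 40 carriers was -0.17 in shScramble, -0.05 in shMCART1, -0.16 in oeNC and -0.18 in oeMCART1, beside -0.12, -0.01, -0.19 and -0.13 over 15642 genes. In all 4 populations 5 carriers were lower under MPP+ without overlap of libraries, among them SLC25A4, SLC25A10, SLC25A22 and SLC25A23, beside 14% of all genes. SLC25A26, the S-adenosylmethionine carrier that supplies mitochondrial methylation, was the 1 carrier higher in all 4, beside 10.5% of all genes. Its shScramble libraries held 23.9, 20.4 and 19.9 TPM untreated and 29.3, 28.5 and 26.9 TPM under MPP+, and its oeMCART1 libraries 24.01, 19.5 and 23.3 and 29.3, 29.6 and 31.1 TPM. The log2 differences of SLC25A26 were 0.39, 0.35, 0.35 and 0.42 in shScramble, shMCART1, oeNC and oeMCART1. SLC25A4 lay at 23.01, 25.1 and 25.4 TPM in untreated shScramble and 13.8, 14.2 and 16.1 TPM under MPP+, with differences of -0.70, -0.44, -0.79 and -0.57 in the same order. SLC25A44 differed by -0.88, -1.19 and -1.24 in shScramble, shMCART1 and oeNC and by -0.28 in oeMCART1. SLC25A13 likewise stood at -0.37, -0.59 and -0.79 in the first 3 and -0.07 in oeMCART1. SLC25A51 itself was listed lower under MPP+ by 1.78 in oeNC, where all 3 libraries left the untreated range.

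**Figure D4:**
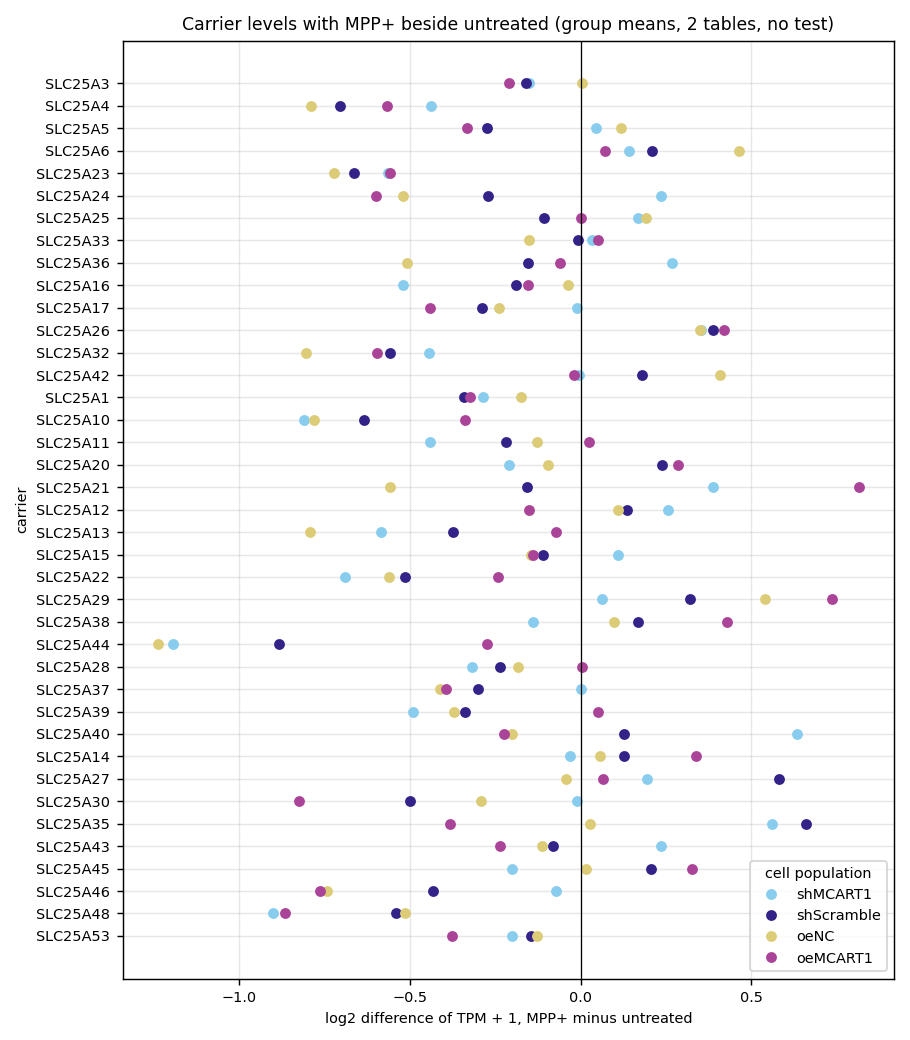
Log2(TPM + 1) under MPP+ minus untreated for 39 carriers in the 4 cell populations; values come from separately normalised tables and carry no test. SLC25A26 lies above 0 in all 4 populations (0.35 to 0.42), while SLC25A44 and SLC25A13 lie near or below 0, least so in oeMCART1.

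Genes that work with the carriers were read from 2 lists. Of 10 genes of carrier import through TOMM70 and TIM22, 8 rose and 0 fell in overexpression under MPP+, beside 46.7% and 14.2% of all genes, with a median log2 change of 0.48 beside 0.26 over all genes. TIMM10B rose by 1.04, the inner-membrane assembly factor AGK by 0.67, the small chaperone TIMM8B by 0.63 and TOMM70, the receptor for carrier precursors, by 0.61. Median-of-ratios scaling gave 5 of the 10 higher and 1 lower, quantile normalization 6 and 0, and GC trend removal 4 and 1, with TIMM22 turning round under the first 2 and TIMM8A and TIMM9 under the last. Under MPP+ 0 of the 10 were higher and 5 lower in oeNC than in shScramble, beside 5.13% and 42.8% of all genes. TIMM10B (-0.79), TOMM70 (-0.51) and AGK (-0.45) were among the 5, and TIMM8B (-0.16) was not. Median-of-ratios scaling gave 4 higher and 2 lower there, quantile normalization 2 and 3, and GC trend removal 3 and 1. Mean TOMM70 under MPP+ was 19.1 TPM in oeNC, 27.6 in shScramble and 29.7 in oeMCART1. In knockdown under MPP+ 0 rose and 4 fell (TIMM10B by -0.58, TIMM10 by -0.39, TIMM9 by -0.36 and TOMM70 by -0.33), beside 10.8% and 22.2% of all genes. In untreated cells 0 rose and 3 fell with knockdown, beside 8.63% and 25.6% of all genes, and 4 rose and 1, TIMM13, fell with overexpression, beside 33.5% and 14.6%. Median-of-ratios scaling gave 3 higher and 3 lower for that knockdown and 4 and 2 for that overexpression, and quantile normalization 2 and 3, and 4 and 4. With the GC trend removed 0 of the 10 were called for knockdown and 1, higher, for overexpression, where TIMM13, TIMM8A and TIMM9 turned round. Of 13 measured carriers under other names and metabolite pores, 8 rose and 2 fell in overexpression under MPP+, and 2 rose and 3 fell in knockdown under MPP+. Median-of-ratios scaling turned the first of these splits into 4 higher and 6 lower, and GC trend removal into 2 and 7. The outer-membrane pore VDAC3 moved in all 4 comparisons: -0.77 and 0.81 with untreated knockdown and overexpression, and -0.63 and 0.78 under MPP+. Between the MPP+ controls 3 of the 13 were higher and 6 lower in oeNC, VDAC3 among the lower (-0.61). The subunits of the pyruvate carrier, MPC1 and MPC2, fell in untreated knockdown (-0.48 and -0.46), where 1 of the 13, UCP2, rose (0.41) and 5 fell. MPC2 turned round there with the GC trend removed, which left 1 of the 13 higher and 0 lower. In untreated overexpression 4 of the 13 rose and 2, MTCH1 and the serine-carrier relative SFXN3, fell. With the GC trend removed that became 0 higher and 5 lower, MPC2, SFXN1 and VDAC1 turning round, and with median-of-ratios scaling 2 and 2.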

How the data were processed

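Polyadenylated RNA of 24 libraries was prepared strand-specifically, per the labels' protocols. The authors deposited TPM, 1 table for 12 untreated and 1 for 12 MPP+ libraries. What aligner and annotation served, and whether counting used strand, is not given in the sources used here. TPM allow no counting interval, and antisense overlaps cannot be told apart. GRCh38, GRCm38 and mm10 are named, with no role, in the submitters' processing notes. Of 63266 and 36783 entries, 25 and 42 lacked an identifier and were left out, as were 24 identical copies of a symbol, among them a second SLC25A6.

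The test was limma 3.58.1 (R 4.3.3; trend in the empirical Bayes variance, no replicate block) on log2(TPM + 1), which understates changes of scarce genes. Each table's 4 groups entered 1 fit, and all 24 libraries the fit of differences, with genes kept if 3 libraries or more had at least 1 TPM. Benjamini-Hochberg adjustment ran over all genes. GC content is that of the longest protein-coding transcript, and its trend was a natural spline with 5 degrees of freedom. The fit was tested on simulated data. Other tools were python 3.11.15 with pandas 2.3.3, scipy 1.17.1, numpy 2.4.6 and matplotlib 3.10.9. The members, role groups and lists were chosen with earlier results of these data known. Some genes enter the counts but are not reported here by name. Named per comparison were up to 6 higher and 6 lower called carriers with the largest log2 change, and others within their role group. Alternatives were quantile normalization, median-of-ratios scaling, GC trend removal, a replicate block, a pseudocount of 0.1, a minimum of 5 TPM or none, leaving out single libraries, and fits restricted to the groups compared.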

Additional observations from a re-analysis of the deposited data

Results flagged for a closer look

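The effect of a construct under MPP+ differed from its effect in untreated cells, by limma's test of the difference over 24 libraries (adjusted p under 0.05), for the genes named here among others. For overexpression the difference was 2.23 for SLC25A51, 0.96 for the branched-chain amino acid carrier SLC25A44, 0.72 for the aspartate/glutamate carrier SLC25A13, 0.44 for SLC25A10, 0.42 for SLC25A39 and 0.33 for SLC25A38, all on the log2 scale. It was -0.45 for SLC25A5, -0.39 for SLC25A6 and -0.21 for SLC25A3. The calls of SLC25A10, SLC25A39 and SLC25A38 did not hold under median-of-ratios scaling, and that of SLC25A3 did not with the GC trend removed. For knockdown SLC25A5 was the 1 carrier, at 0.32, and was not called under median-of-ratios scaling or quantile normalization. On the deposited scale the ADP/ATP carrier SLC25A5 was thus the 1 carrier with a difference in both, in opposite directions. Its means under MPP+ were 824 TPM in shMCART1, 729 in shScramble, 822 in oeNC and 689 in oeMCART1. The large SLC25A51 difference goes with the oeNC level, 31.6 TPM untreated and 8.49 TPM under MPP+, as well as with the oeMCART1 level, 683 and 936 TPM.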

How the results depend on the processing

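Counts of carriers called (of 40) moved most in untreated knockdown: 13 became 2 with no filter, 4 in a fit of only the groups compared, 4 with the GC trend removed and 0 to 21 leaving out each library in turn. Over all genes 5034 calls of 14694 became 1271 of 32398, 1800 of 13886 and 1312 of 14154 in those fits. Leaving out libraries gave 2 to 7246. Untreated overexpression gave 22 carriers, with 7 after GC trend removal and 14 to 21 leaving out libraries. Knockdown under MPP+ gave 13, with 7 to 13. Overexpression under MPP+ gave 29, with 19 after GC trend removal and 22 to 27. Over all genes GC trend removal left 2344 calls of 14154 for untreated overexpression and 6691 of 13918 under MPP+. The controls differed in 0 carriers untreated, 2 with the GC trend removed and 0 to 3 leaving out libraries, and in 20 under MPP+, 13 with quantile normalization, 11 with the GC trend removed and 16 to 20. Over all genes they differed in 190 untreated and 1084 with the GC trend removed. Under MPP+ that was 7138, 4932 with quantile normalization and 3238 with the GC trend removed. The knockdown difference was called for 1 carrier, for 0 in a fit of only the groups compared, 3 with the GC trend removed and 1 to 3 leaving out libraries, and the overexpression difference for 9, with 6 to 10. Over all genes the knockdown difference was called for 605, for 122 in the restricted fit and for 1082 with the GC trend removed. Fewer samples and degrees of freedom enter the fits of only the groups compared and those without a library, and more genes those with no filter.

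Whether equal replicate numbers mark pairs was not settled. Deviations of same-numbered libraries of compared groups correlated at -0.0814 to 0.213, and 5 of 18 pairs exceeded 0.1. Of the 18, 10 correlated best with their own number among the 3 libraries of the other group. With the replicate block the controls differed in 3 carriers untreated, beside 1937 of all 14694 genes (190 without the block). The knockdown difference was called for 2 carriers, beside 1097 of 15642 genes. Untreated knockdown and overexpression gave 18 and 24 carriers, beside 6318 and 7659 genes. Under MPP+ they gave 13 and 29, beside 4600 and 8987 of 14884 genes, and the controls 21, beside 6992. The overexpression difference gave 10 carriers, beside 3106 genes.

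The median difference between MPP+ and untreated libraries of shScramble was -0.22 with a pseudocount of 0.1 and -0.0595 with median-of-ratios scaling, which gave 0.032 in oeNC and -0.11 in oeMCART1. The summed TPM without SLC25A3, SLC25A5, SLC25A6 and SLC25A51 was 1095 in shScramble, 1164 in shMCART1, 1080.0 in oeNC and 970 in oeMCART1, and 897, 904, 865 and 891 under MPP+. SLC25A6 in untreated knockdown was -0.037 with the GC trend removed, against 0.26 on the deposited scale. The knockdown difference of SLC25A51, not called, was 0.07, became -0.026 with median-of-ratios scaling and -0.072 with quantile normalization, and ranged from -0.095 (without untreated shMCART1 replicate 3) to 0.25 leaving out libraries, with -0.018 without shScramble replicate 1 under MPP+. Of the 65 largest called changes (up to 6 per direction and comparison), GC trend removal left 33 with call and direction. Median-of-ratios scaling left 57 and quantile normalization 52. Of all calls, median-of-ratios scaling kept 11 of 13 in untreated knockdown and 19 of 22 in untreated overexpression. It kept 10 of 13 in knockdown and 16 of 29 in overexpression under MPP+. Between the MPP+ controls it kept 10 of 20, and 5 of 9 for the overexpression difference. Quantile normalization kept 10, 19, 8, 16, 8 and 5 of these, and GC trend removal 0, 3, 7, 15, 7 and 8. These are counts of carriers, without the share of all called genes that was kept. The causes were not tested beyond these values, and without depth the counting error of scarce carriers is unknown.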
